A study of Mus musculus with 9 samples.

Results

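The genes described here are 7 ubiquitin ligase genes linked to muscle wasting (Fbxo32, Trim63, Fbxo30, Fbxo31, Fbxo21, Fbxo40 and Nedd4) and 3 genes of the FoxO transcription factors (Foxo1, Foxo3 and Foxo4). They were taken by name from the deposited expression tables, where all 10 were found among the 14300 genes that both tables hold. All 10 passed the filter on low values in every comparison. Their RNA was measured by poly(A) RNA sequencing of the tibialis anterior, a fast muscle at the front of the shin, from male C57BL/6J mice. The 3 groups were control mice (named Sham in the tables), mice whose testes were removed by orchiectomy (ORX), and mice that had dihydrotestosterone after the same operation (ORX+DHT). Dihydrotestosterone is an androgen that binds the androgen receptor. Each group had 3 libraries, described as biological replicates and taken 4 weeks after treatment. The age of the mice and the dose and route of DHT are not given in the sources used here. Nothing says outright that the replicates are separate animals, so p-values measure the spread between these libraries.

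Muscle loses protein when breakdown by the ubiquitin-proteasome system outpaces synthesis. A ubiquitin ligase picks the protein to be tagged. F-box proteins such as Fbxo32 do so as the substrate-binding subunit of an SCF complex, RING proteins such as Trim63 bring the substrate and the conjugating enzyme together, and HECT proteins such as Nedd4 carry the ubiquitin themselves. FoxO factors switch on several of these genes in fasting, denervation and disuse. Insulin and IGF-1, acting through the kinase Akt, keep FoxO proteins out of the nucleus by phosphorylation, a step that RNA levels do not measure.

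The libraries held 1340209 to 1682235 reads over genes. On the first principal component, with 30.7% of the variance, control replicate 1 had a score of 47.2 and the other 8 libraries lay between -10.6 and -0.716. The summed level of 6 myofibre markers ranged over 222140 to 235142 normalised counts in control, over 176823 to 195273 in ORX, and over 203769 to 218009 in ORX+DHT. All 6 were present in every library. The summed level of 5 fibroblast markers ranged over 1352 to 2729 in control, over 2876 to 3841 in ORX, and over 1700 to 2388 in ORX+DHT, with none at 0 in any library. Most of that sum was Col1a1 (846 ± 379 in control, 1682 ± 176 in ORX) and Col3a1 (745 ± 280 and 1222 ± 260). Lum was also higher in ORX (63.1 ± 31.2 and 104 ± 13.4). The means of Dcn differed less (350 ± 76.6 and 398 ± 122), and that of Pdgfra was not higher in ORX (20.3 ± 4.15 and 19.2 ± 10.1). Summed Schwann cell markers were higher in each ORX library (135 to 155) than in control (94.0 to 99.3), with 91.2 to 128 in ORX+DHT. Summed smooth muscle and pericyte markers were higher in each ORX+DHT library (1279 to 1298) than in control (1000.1 to 1114) or ORX (1104 to 1182). The part of these cells in the differences below was not tested. In whole muscle, fewer cells of a type and less RNA per cell cannot be told apart.

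The 2 best-known atrophy ligases did not follow one pattern across the groups. The group mean of Fbxo32 was higher in ORX than in control and higher again in ORX+DHT, whereas Trim63 had its lowest levels in ORX. With limma, 0 of the 10 genes reached an adjusted p under 0.05 in ORX against control (0.0579% of all genes did), in ORX+DHT against ORX (4.08%) or between ORX+DHT and control (0.0349%). Group levels below are normalised counts on a scale shared by the 9 libraries, and each fold change was taken on log2(value + 1).

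Fbxo32 (ENSMUSG00000022358; GRCm38 chr15:58175879-58214932, minus strand), which encodes the F-box protein atrogin-1, had 277 to 830 reads per library. Control replicates 1, 2 and 3 had 346, 481 and 402 normalised counts (410 ± 67.9, SD, n = 3). ORX had 554, 526 and 499.6 (526 ± 27.0), and ORX+DHT had 517, 613 and 820 (650 ± 155). Every ORX library lay above every control library, while ORX and ORX+DHT overlapped and ORX+DHT replicate 3 stood highest. The log2 fold change of ORX against control was 0.37 (SE 0.15, unadjusted 95% interval 0.04 to 0.71, limma adjusted p = 0.675). It was 0.28 for ORX+DHT against ORX (SE 0.12, interval 0.02 to 0.54, limma adjusted p = 0.304), and this value rested largely on ORX+DHT replicate 3. Without that library it was 0.098 (limma adjusted p = 0.749). Leaving out ORX+DHT replicate 1 instead gave 0.43 (0.0733). The widest of the 3 differences was ORX+DHT against control, at 0.65 (SE 0.19, interval 0.24 to 1.06, limma adjusted p = 0.675), a ratio of 1.57 with no overlap. Without control replicate 1 that difference was 0.54 (limma adjusted p = 0.14) and the ORX against control difference was 0.26 (0.377). None of these passed the test.

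Trim63 (ENSMUSG00000028834; GRCm38 chr4:134315120-134329629, plus strand), which encodes the RING ligase MuRF1 of the sarcomere, had 317 to 511 reads per library. Control libraries had 422, 350.5 and 336 normalised counts (369 ± 46.2). ORX had 312, 305 and 283 (300.1 ± 15.3), and ORX+DHT had 333, 494 and 379 (402 ± 82.7). The 3 ORX libraries were the lowest of the 9, below both other groups. The log2 fold change was -0.29 for ORX against control (SE 0.15, unadjusted interval -0.61 to 0.03, limma adjusted p = 0.695), and -0.19 without control replicate 1 (0.536). It was 0.40 for ORX+DHT against ORX (SE 0.12, interval 0.15 to 0.65, limma adjusted p = 0.0703), a ratio of 1.32. That value was the nearest to the threshold among the 10 genes. Leaving out ORX+DHT replicate 1, the lowest library of its group, took it to 0.53 and past the threshold (limma adjusted p = 0.0259), where 2.54% of all genes were called. Leaving out ORX+DHT replicate 2, the highest, took it to 0.25 (0.327), and in 1 fit of all 9 libraries the limma adjusted p was 0.356. ORX+DHT against control gave 0.11 (0.885), or 0.21 without control replicate 1 (0.634).

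The sequence before the transcription start of Trim63 is shown because it held the only FoxO core motif found among the promoters searched. RefSeq's GRCm38.p6 promoter table gave 10 entries for 8 of the genes, including 2 each for Fbxo40 and Nedd4. The promoters of Fbxo32 and Foxo4 were not analysed here. Each entry spans 300 bases, 250 before and 50 after a start. The 250 bases before the start are printed for Trim63 (chr4:134314870-134315119, plus strand) and, for comparison, for Fbxo40 (chr16:36990468-36990717, minus strand), the muscle F-box gene of like level per length. Capitals mark motif matches.
Trim63: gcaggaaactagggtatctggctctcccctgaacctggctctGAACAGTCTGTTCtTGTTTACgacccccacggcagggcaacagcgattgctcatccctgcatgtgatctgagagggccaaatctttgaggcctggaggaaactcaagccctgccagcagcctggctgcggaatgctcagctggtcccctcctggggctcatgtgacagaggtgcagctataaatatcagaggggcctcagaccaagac
Fbxo40: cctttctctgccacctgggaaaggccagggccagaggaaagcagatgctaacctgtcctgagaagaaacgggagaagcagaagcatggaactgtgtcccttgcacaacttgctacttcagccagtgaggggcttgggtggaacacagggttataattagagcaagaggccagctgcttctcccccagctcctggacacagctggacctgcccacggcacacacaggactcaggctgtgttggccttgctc
Each motif was searched on both strands. The FoxO core GTAAACA matched Trim63 on the minus strand, as TGTTTAC, beginning 194 bases before the start, and it was in 3.65% of all 32851 promoters. The other capitals in Trim63 are a palindrome, GAACA and TGTTC with any 3 bases between, a short form of the element that the androgen and glucocorticoid receptors are known to bind, chosen after the sequence was seen. It began 208 bases before the start, ended next to the FoxO core with 1 base between them, and was in 0.0578% of all promoters. The longer palindrome, AGAACA and TGTTCT with any 3 bases between, was in 0 of the 10 entries and in 0.00913% of all promoters, and CAAAACA, a core of insulin response elements, was in 0 of the 10 and in 6.28%. Fbxo40 held none of these letters in the window. A match describes letters and does not show that a factor binds there.

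Fbxo30, Fbxo31 and Fbxo21 encode further F-box proteins, known from wasting muscle as dependent on FoxO. Fbxo30 (ENSMUSG00000047648; chr10:11281330-11298052, plus strand), also called MUSA1, had only 26 to 55 reads per library. Its levels were 32.5, 33.2 and 27.8 normalised counts in control (31.1 ± 2.91), 33.4, 40.1 and 35.6 in ORX (36.3 ± 3.42), and 31.4, 38.7 and 54.3 in ORX+DHT (41.5 ± 11.7). ORX libraries lay just above control, by less than 1 count at the nearest pair, and ORX+DHT replicate 3 stood apart from its group on the high side, as it did for Fbxo32. The log2 fold change was 0.22 for ORX against control (limma adjusted p = 0.819), 0.15 for the effect of DHT after orchiectomy (0.798) and 0.37 between the ORX+DHT and control groups (0.749). Without ORX+DHT replicate 3 the last pair of values was -0.054 and 0.16.

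Fbxo31 (ENSMUSG00000052934; chr8:121549440-121578806, minus strand), which also targets cyclin D1 in dividing cells, had 177 to 378 reads. Its levels were 221, 252 and 263 normalised counts in control (245 ± 21.9), 288, 312 and 313 in ORX (304 ± 14.3), and 304, 274 and 303 in ORX+DHT (294 ± 17.4). Both orchiectomised groups lay wholly above control and overlapped each other. The log2 fold change was 0.31 for ORX against control (SE 0.14, limma adjusted p = 0.69) and 0.26 for ORX+DHT against control (0.736), but -0.05 for ORX+DHT against ORX (0.862). Fbxo21 (ENSMUSG00000032898; chr5:117976730-118010201, plus strand), also called SMART, had 9 to 27 reads. It had 11.2, 23.2 and 17.9 normalised counts in control (17.4 ± 6.00), 26.5, 20.5 and 20.7 in ORX (22.6 ± 3.42), and 22.3, 21.3 and 20.7 in ORX+DHT (21.4 ± 0.785). The groups overlapped, and control replicate 1 held the lowest value. At this depth its differences, of 0.40, -0.06 and 0.34 on the log2 scale, were not detectable (limma adjusted p 0.788, 0.944 and 0.799). With that library left out, the first was 0.13 (0.91) and the last 0.069 (0.967).

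Fbxo40 and Nedd4 were the ligases with the highest counts in control, and neither came near the threshold. Fbxo40 (ENSMUSG00000047746; chr16:36963460-36990467, minus strand) is a muscle F-box protein that targets the insulin receptor substrate IRS1. It had 621, 715 and 703 normalised counts in control (680 ± 51.6), 608, 630 and 629 in ORX (622 ± 12.6), and 658, 597 and 537 in ORX+DHT (597 ± 60.6). All 3 groups overlapped. It was the one ligase whose log2 fold change was negative in every comparison, at -0.13, -0.06 and -0.19 in the same order (adjusted p by limma 0.83, 0.81 and 0.773). After quantile normalisation the first of these was 0.035, and without control replicate 1 it was -0.19 (0.466). Nedd4 (ENSMUSG00000032216; chr9:72662346-72749852, plus strand), a HECT ligase, had 523, 833 and 769 in control (708 ± 163), 869, 727 and 714 in ORX (770 ± 86.0), and 824, 831 and 802 in ORX+DHT (819 ± 15.1). Control replicate 1 was its lowest library by far, and without it the log2 fold change of ORX against control went from 0.14 to -0.062 (limma adjusted p 0.872 and 0.887). ORX+DHT against ORX gave 0.10 with an unadjusted interval of -0.09 to 0.28, and ORX+DHT against control gave 0.24 (0.773), or 0.034 without control replicate 1 (0.933).

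**Figure D1:**
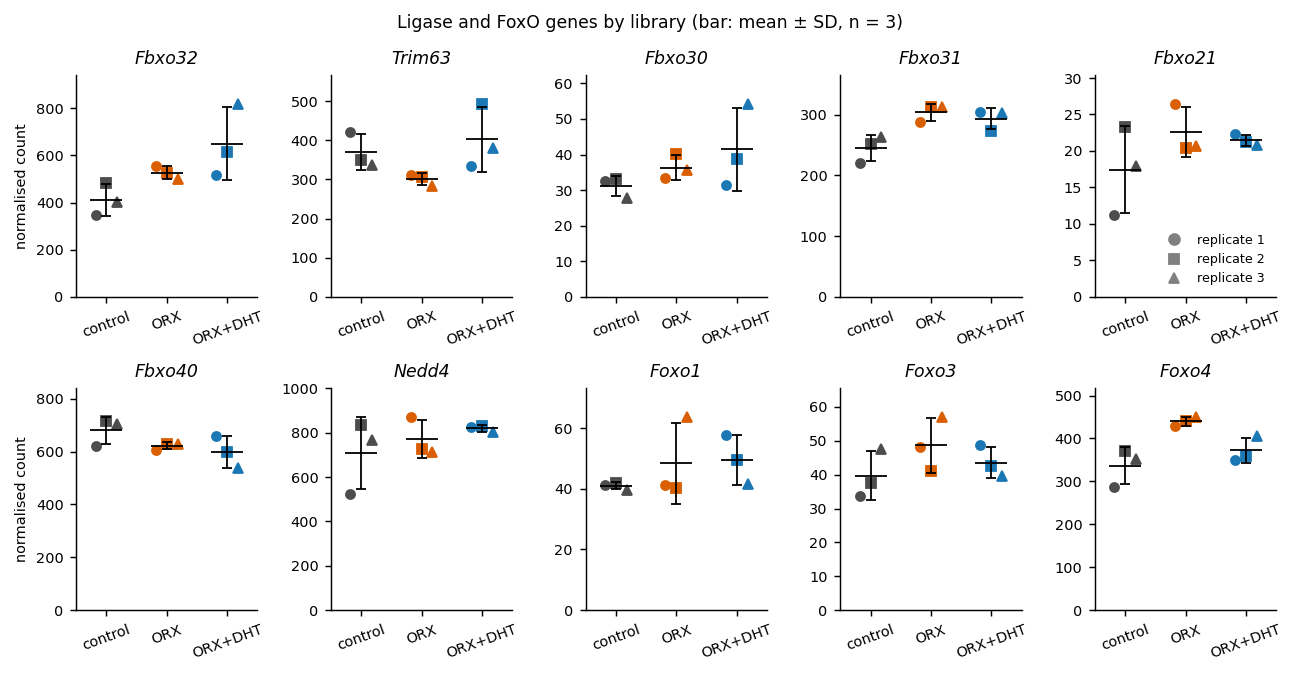
Normalised counts (y axes, from 0) of the 7 ligase and 3 FoxO genes in each of 9 libraries, by group, with marker shape for replicate and bars for mean ± SD (n = 3). The ORX libraries of Trim63, 283 to 312, sit below all others, those of Foxo4, 428 to 449, sit above all others, and Fbxo32 spans 517 to 820 in ORX+DHT.

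Among the FoxO genes, Foxo4 had its highest levels in ORX, the group in which Trim63 had its lowest. Foxo4 (ENSMUSG00000042903; chrX:101254528-101260873, plus strand), the FoxO gene with the highest counts here, had 230 to 543 reads. Its levels were 287, 370 and 352 normalised counts in control (336 ± 43.6), 428, 442 and 449 in ORX (440 ± 10.8), and 351, 360 and 406 in ORX+DHT (372 ± 29.8). The 3 ORX libraries were the highest of the 9, and ORX+DHT overlapped control. The log2 fold change was 0.39 for ORX against control (SE 0.15, unadjusted interval 0.07 to 0.71, limma adjusted p = 0.669). It was -0.24 for ORX+DHT against ORX (SE 0.09, interval -0.43 to -0.06, limma adjusted p = 0.172) and 0.15 for ORX+DHT against control (0.823). Without control replicate 1 the first was 0.28 (0.274) and the last 0.041 (0.933).

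Foxo1 (ENSMUSG00000044167; chr3:52268336-52353221, plus strand), known for raising Pdk4 and lipid use in fasting muscle, had 33 to 77 reads. Its levels were 41.2, 42.0 and 39.7 normalised counts in control (41.0 ± 1.16), 41.2, 40.1 and 63.7 in ORX (48.3 ± 13.3), and 57.8, 49.3 and 41.5 in ORX+DHT (49.5 ± 8.13). The groups overlapped, and ORX replicate 3 was the only ORX library above the control range. In the order used above, its log2 fold change was 0.20, 0.05 and 0.25 (adjusted p by limma 0.838, 0.941 and 0.781), and the first was -0.012 without ORX replicate 3. Foxo3 (ENSMUSG00000048756; chr10:42181841-42276755, minus strand), known to drive atrogin-1 and autophagy genes, had 27 to 69 reads. Its levels were 33.7, 37.6 and 47.7 in control (39.7 ± 7.21), 48.1, 40.9 and 57.1 in ORX (48.7 ± 8.09), and 48.6, 42.5 and 39.5 in ORX+DHT (43.6 ± 4.64). The groups overlapped throughout, and the log2 fold change was 0.29, -0.15 and 0.14 in that order (adjusted p by limma 0.785, 0.767 and 0.877). Leaving out control replicate 1 made the first 0.18 (0.804) and the last 0.035 (0.981). Foxo6, the remaining FoxO gene and chosen after its values were seen, had 10 to 40 reads and levels of 24.2 ± 11.2, 26.5 ± 7.28 and 15.1 ± 3.26 in control, ORX and ORX+DHT. Its log2 fold change in ORX+DHT against ORX was -0.75 (SE 0.26, limma adjusted p = 0.151).

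Counted over the set, 0 of 10 genes were called in ORX against control, where limma called 0.0579% of all 8631 genes tested. Both edgeR, which called 0.0695% of all genes, and DESeq2, which called 0.324%, also called 0 of the 10. At an unadjusted p under 0.05 there were 3 by limma (Fbxo31, Fbxo32 and Foxo4), 3 by edgeR and 1 by DESeq2, against 7.21%, 7.51% and 4.43% of all genes by these tools. In 5 of the 10 (Fbxo32, Trim63, Fbxo30, Fbxo31 and Foxo4) the groups did not overlap, against 14.3% of all genes. The log2 fold change was positive for 8 of 10 and 48.9% of all genes, with a median of 0.25 against -0.01 over all genes. Without control replicate 1, limma still called 0 of the 10 while it called 0.592% of all genes, and 4 of the 10 (Fbxo31, Fbxo32, Fbxo40 and Foxo4) had an unadjusted p under 0.05, against 10.6% of all genes. The log2 fold change was then positive for 7 of 10, with Nedd4 at -0.062 and Fbxo21 down to 0.13. The median over all genes was -0.015 in that fit.

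With DHT, 0 of 10 were called in ORX+DHT against ORX, where limma called 4.08% of the 8770 genes tested. The calls of edgeR (4.17% of all genes) and DESeq2 (2.55%) included 0 of the 10 as well. At an unadjusted p under 0.05 there were 3 by each tool (Fbxo32, Trim63 and Foxo4 by limma), against 14.3% of all genes by limma, 14.3% by edgeR and 7.81% by DESeq2. The groups did not overlap for 2 genes, Trim63 and Foxo4, against 19.5% of all genes, which is a like share. The 10 genes were split evenly in sign, 5 positive (50.8% of all genes were) and 5 negative, with a median of 0.00 against 0.01 over all genes. Between ORX+DHT and control, 0 of 10 were called by limma, edgeR or DESeq2, which called 0.0349%, 0.0465% and 0.151% of the 8595 genes tested. Without control replicate 1 limma called 0.768% of all genes and 0 of the 10, with 2 of them (Fbxo32 and Fbxo40) at an unadjusted p under 0.05, against 9.87% of all genes. With all libraries there was 1 gene at an unadjusted p under 0.05 by each tool, Fbxo32 by limma, against 6.48% of all genes by limma, 6.71% by edgeR and 3.3% by DESeq2. In that comparison 2 genes, Fbxo32 and Fbxo31, did not overlap, against 14% of all genes, and 9 of 10 had a positive log2 fold change, against 49.3%. The comparisons share libraries, so their values for a gene are not independent of each other.

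**Figure D2:**
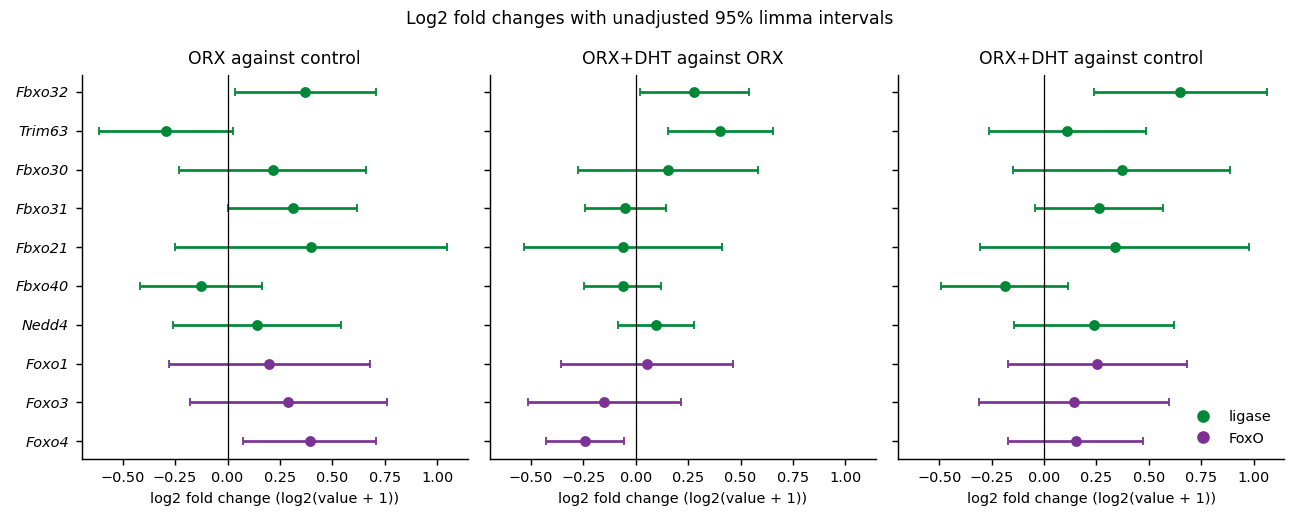
Log2 fold changes (x axes, log2(value + 1) scale) of the 10 genes in the 3 comparisons, 1 panel each, as points with unadjusted 95% limma intervals. Fbxo32 is the gene furthest to the right in ORX+DHT against control, at 0.65, and Trim63 changes side between the first panel, at -0.29, and the second, at 0.40.

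Because Fbxo32 and Trim63 differed in their order over the groups, their reads were also set against each other within each library, a description chosen after the values were seen. The ratio of Fbxo32 to Trim63 reads was 0.820, 1.37 and 1.20 in control, 1.77, 1.72 and 1.77 in ORX, and 1.55, 1.24 and 2.16 in ORX+DHT. The ratio was close to equal in the 3 ORX libraries, all above control, and those of ORX+DHT overlapped both other groups. The ratio of Trim63 to Foxo4 reads was 1.47, 0.946 and 0.955 in control, 0.729, 0.691 and 0.630 in ORX, and 0.951, 1.37 and 0.934 in ORX+DHT. Here the ORX libraries were the lowest 3 of the 9. The ratio of Fbxo32 to Foxo4 reads was 1.22 ± 0.0778 in control and 1.20 ± 0.0909 in ORX, and at 1.47, 1.70 and 2.02 it was higher in each ORX+DHT library than in any other.

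Set per kilobase of exon, so that genes could be compared, the 10 fell into an upper set of 6 and a lower set of 4. In control the order was Trim63 (130 normalised counts per kb), Fbxo40 (123), Foxo4 (96.5), Nedd4 (64.5), Fbxo32 (58.7) and Fbxo31 (44.8), then Fbxo30 (5.99), Foxo3 (5.24), Foxo1 (4.73) and Fbxo21 (3.15). The ranges of Trim63 and Fbxo40 overlapped over the 3 control libraries, as did those of Nedd4 and Fbxo32, of Fbxo30 and Foxo3, and of Foxo3 and Foxo1. The step from Fbxo31 to Fbxo30 was 7.47-fold in control, 7.93-fold in ORX and 6.71-fold in ORX+DHT. Foxo4 was thus the one FoxO gene in the upper set, and MUSA1 and SMART were the ligases in the lower set.

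Within the upper set the order changed with the group. Lengths were of all annotated exons merged, whichever transcripts this muscle makes, so the order of genes close in level depends on them. In ORX the highest was Foxo4 (126 per kb), followed by Fbxo40 (113) and Trim63 (106), none of which overlapped its neighbour. The steps between them were 1.12-fold and 1.07-fold. The order with DHT was Trim63 (142), Fbxo40 (108), Foxo4 (107) and Fbxo32 (93.2), each overlapping the next. Exons of Foxo1 share 674 bases with the antisense gene Gm20402, and exons of Fbxo32 share 186 bases with the antisense gene Gm15943. The library kit keeps strand, but whether the counting used it is not given in the sources used here, so reads of these partners may be included.

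**Figure D3:**
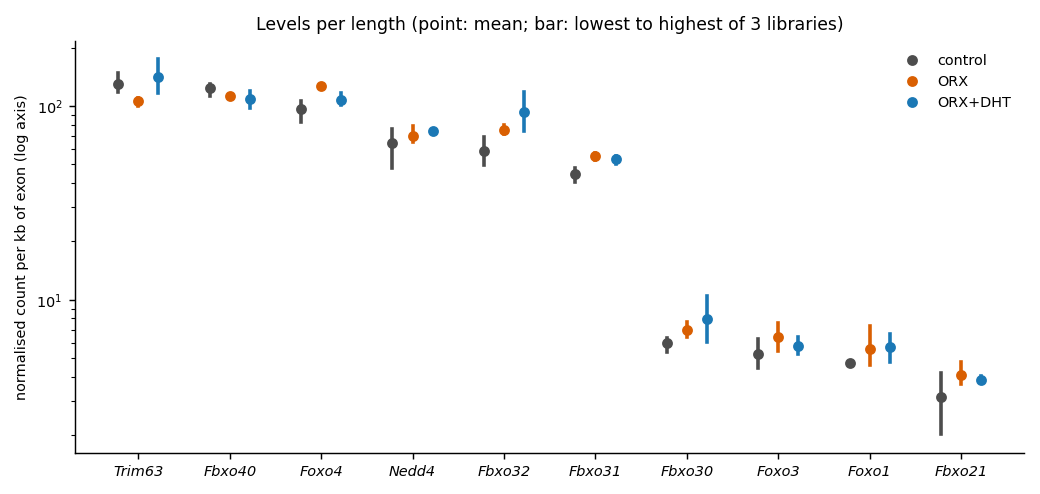
Levels per length of the 10 genes (y axis, normalised counts per kb of merged exon, log axis) as group means with bars from the lowest to the highest of 3 libraries. An upper set of 6 genes, from 44.8 to 130 in control, is separated from a lower set of 4, from 3.15 to 5.99.

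Each ligase gene was compared with each FoxO gene over the 9 libraries, giving 21 pairs. None had a Benjamini-Hochberg adjusted p under 0.05 by exact permutation over the pairs, and 2 had a raw p under 0.05. That permutation did not keep libraries within their group, so a group difference that both genes share also lowers its p. The closest pair was Fbxo31 and Foxo4, with Pearson's r of 0.835 (exact permutation p = 0.00532, adjusted 0.112) and Spearman's rho of 0.683 (exact permutation p = 0.0503, adjusted 0.28). Without the 2 libraries farthest from the median Foxo4 level, control replicate 1 and ORX replicate 3, r was 0.54. After the group means were removed it was 0.73 (exact permutation within groups p = 0.157, adjusted 0.472). Among the libraries left out in turn, the pair passed the adjusted threshold only without ORX+DHT replicate 1 (r = 0.946, exact permutation adjusted p = 0.0307). Fbxo21 and Foxo4 had r of 0.72 (exact permutation p = 0.0356, adjusted 0.311) and rho of 0.217 (exact permutation p = 0.581, adjusted 0.905). Without the 2 outermost libraries its r was 0.35 and without control replicate 1 alone it was 0.22, so that relation rested on that library.

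Of the 6 pairs of Fbxo32 and Trim63 with a FoxO gene, the 3 of Fbxo32 had a positive r and the 3 of Trim63 a negative one. Fbxo32 had r of 0.088 with Foxo1, 0.122 with Foxo3 and 0.573 with Foxo4 (exact permutation p 0.8, 0.763 and 0.104; rho 0.25, 0.167 and 0.433). With group means removed these were -0.53, -0.26 and 0.815, the last with an exact permutation p of 0.0463 (adjusted 0.472). Trim63 had r of -0.196 with Foxo1, -0.602 with Foxo3 and -0.647 with Foxo4 (exact permutation p 0.629, 0.0867 and 0.0593; rho -0.083, -0.65 and -0.667), with adjusted p of 0.851, 0.364 and 0.311. Without the 2 libraries outermost in the FoxO gene, the 3 values for Trim63 were 0.81, -0.27 and -0.44. Leaving out control replicate 1 alone took the number of positive pairs from 15 to 8 of 21, over a range of r from -0.575 to 0.636. Within groups, with group means removed, the lowest exact permutation adjusted p was 0.472. With 3 libraries a group, there are too few arrangements for any pair by itself to pass the adjusted threshold. That test therefore cannot decide whether a single pair varies together within groups.

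**Figure D4:**
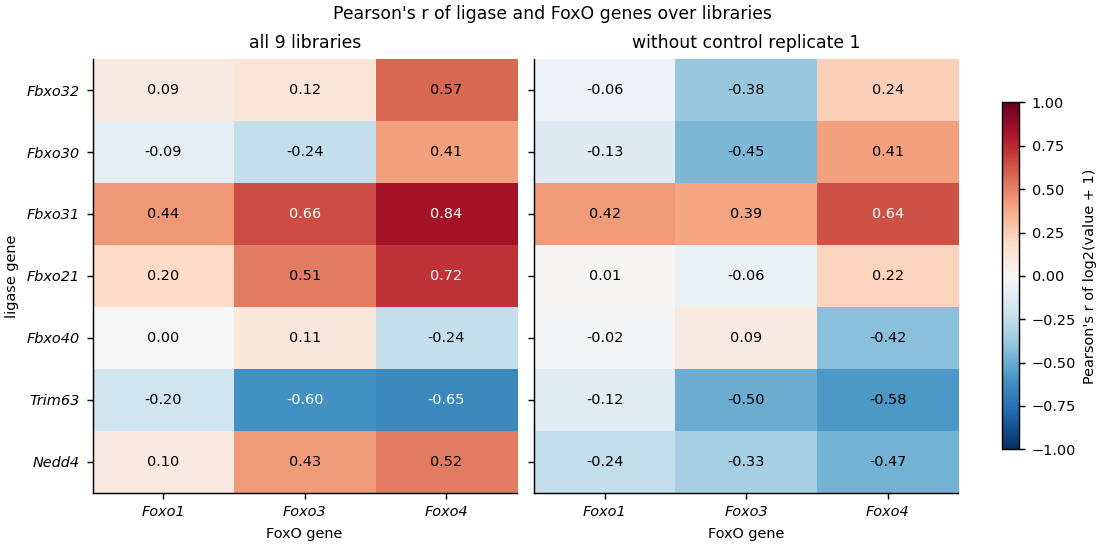
Pearson's r of log2(value + 1) for each ligase gene (rows) with each FoxO gene (columns), over all 9 libraries (left) and without control replicate 1 (right). Red is positive and blue negative: r of Fbxo31 with Foxo4 is 0.84 on the left and 0.64 on the right, and the Trim63 row is negative in both panels.

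Some ligase genes followed each other more closely than they followed a FoxO gene, and these values are descriptions without a test. Fbxo32 and Fbxo30 had r of 0.831 over the 9 libraries (0.921 without control replicate 1), and both were opposite to Fbxo40, with r of -0.685 and -0.827 (-0.922 and -0.858). ORX+DHT replicate 3 was the highest library for Fbxo32 (820 normalised counts) and Fbxo30 (54.3) and the lowest for Fbxo40 (537). How far these relations rested on that library was not tested. Fbxo21 and Nedd4 had r of 0.938, which was 0.674 without control replicate 1, their lowest library. Fbxo32 and Trim63 had r of 0.084 (0.440), and Foxo1 and Foxo3 had r of 0.659 (0.675).

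The genes most like Fbxo32 over the 9 libraries, of 3794 compared, were Ivns1abp (r = 0.914), Pip5k1c (0.898), a lipid kinase gene, and Nr1d1 (0.889), which encodes the clock repressor REV-ERBα. Without control replicate 1 each had r of 0.861. Those most like Trim63 were Tfg (0.901), a gene of secretory transport, Slc38a3 (0.891), which encodes a glutamine transporter, and Mapt (0.888), which encodes tau. They had r of 0.881, 0.934 and 0.866 without control replicate 1. Of 3795 genes compared, those most like Foxo1 were Ptgr2 (0.895), Napa (0.817) and Brd2 (0.809), and those most like Foxo3 were Fgfr1 (0.898), a receptor for fibroblast growth factors, Ppp4r2 (0.876) and Cdnf (0.870). These were picked as the highest of the genes compared, so their size is no test.

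Other genes of the pathway were read from lists. No gene of the 5 lists was called by limma in ORX or in ORX+DHT against control. In ORX+DHT against ORX, limma called 2.38% of all genes higher and 1.7% lower, and the median log2 fold change over all genes was 0.01. Of 19 other muscle ubiquitin ligases, 2 were called higher and 0 lower in that comparison, with a median log2 fold change of 0.11. Nedd4l, a HECT ligase related to Nedd4, rose by 0.71 (SE 0.15, limma adjusted p = 0.0103), from 61.6 ± 11.3 normalised counts in ORX to 100.4 ± 11.6, with 92.2 ± 20.5 in control. The call was lost without ORX replicate 2 (0.0683) or ORX+DHT replicate 2 (0.0542) or 3 (0.0518).

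Trim54, which encodes MuRF3 and is the close relative of Trim63, had 543, 422 and 388 normalised counts in control, 290, 357 and 366 in ORX, and 443, 426 and 443 in ORX+DHT. Its ORX libraries were the lowest of the 9, as for Trim63. It rose by 0.38 in ORX+DHT against ORX (SE 0.10, limma adjusted p = 0.0343), a call that held in 7 of 15 alternative fits. It was lost without ORX replicate 1 (0.115) or 2 (0.0573) and without ORX+DHT replicate 1 (0.134), 2 (0.0785) or 3 (0.0986). Its value in ORX against control was -0.41 (0.675). Trim55, which encodes MuRF2 and was chosen after its values were seen, had the opposite sign, with 124 ± 13.6, 146 ± 11.6 and 123 ± 1.04 normalised counts in control, ORX and ORX+DHT and a log2 fold change of -0.24 in ORX+DHT against ORX (limma adjusted p = 0.34).

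Of 17 SCF core and ubiquitin-conjugating enzyme genes tested, 1 was called lower and 0 higher in ORX+DHT against ORX, with a median of -0.00. Ube2d1, a conjugating enzyme that works with many RING ligases, fell by 0.48 on the log2 scale (SE 0.09, limma adjusted p = 0.00514), from 318 ± 24.3 normalised counts in ORX to 228 ± 6.42, with 285 ± 22.3 in control. Ube2j1, the next gene of that list by p, had a log2 fold change of 0.38 (0.347). None of 20 genes between insulin or IGF-1 and Akt was called by limma, against 4.08% of all genes. An unadjusted limma p under 0.05 was found for 1, against 14.3% of all genes, with a median of 0.14 against 0.01 over all genes. The smallest p values there were those of Pik3r1, a regulatory subunit of PI 3-kinase, at -0.51 (0.3), and Mtor, at 0.33 (0.387). Insr and Irs2 stand both in that list and among the FoxO targets below.

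Known FoxO targets outside the 10 genes moved in both directions. When ORX+DHT was set against ORX, 4 of 24 were called, 2 higher and 2 lower, and the median was -0.20. Sesn1, a stress-response gene that restrains mTORC1, fell by 1.08 (SE 0.17, limma adjusted p = 0.000678), from 76.7 ± 7.38 normalised counts in ORX to 36.2 ± 7.05, with 33.1 ± 7.89 in control. Its value in ORX against control was 1.21 (0.084). Ctsl, the lysosomal protease cathepsin L, fell by 0.63 (0.00105), from 204 ± 16.0 to 131 ± 3.51, with 171 ± 30.1 in control. Sesn1 and Ctsl were called in all 15 alternative fits.

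The 2 targets called higher were Eif4ebp1, which encodes the translation brake 4E-BP1, and Pnpla2, which encodes adipose triglyceride lipase. Eif4ebp1 rose by 0.86 (limma adjusted p = 0.0129), from 42.3 ± 12.5 normalised counts in ORX to 75.6 ± 8.69, with 48.0 ± 2.63 in control, and lost the call without ORX replicate 1 (0.0557) or ORX+DHT replicate 1 (0.0839). Pnpla2 rose by 0.52 (0.00283), from 399 ± 39.7 to 572 ± 46.9, with 474 ± 31.8 in control. Among 16 genes listed as other regulators of ligase transcription the median was -0.06, with 1 called higher and 1 lower. That list also held Eif3f, a gene of a translation initiation factor. Ppargc1a, the coactivator PGC-1α, rose by 0.60 (0.013), from 68.8 ± 8.81 to 104 ± 4.69, with 77.6 ± 32.1 in control, a call that held in 11 of 15 alternative fits and was lost without ORX+DHT replicate 1 (0.0733) or 2 (0.0564). Nr3c1, the glucocorticoid receptor gene, fell by 0.43 (0.038), from 181 ± 8.81 to 135 ± 15.6, with 155 ± 41.4 in control, a call that held in 8 of 15 alternative fits and was kept by leaving out ORX replicate 3 but no other library (0.0591 to 0.173). In 1 fit of all 9 libraries, Nedd4l, Ube2d1, Eif4ebp1 and Pnpla2 also lost their calls (0.114, 0.0739, 0.0568 and 0.055), as did Trim54, Ppargc1a and Nr3c1.

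**Figure D5:**
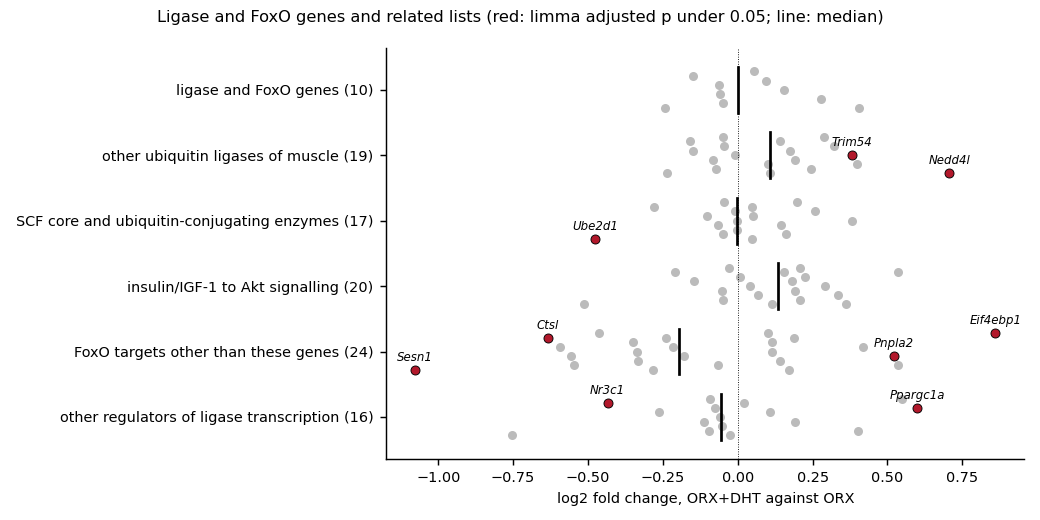
Log2 fold changes of ORX+DHT against ORX (x axis) for the 10 genes and 5 related lists, with 1 point per gene tested, red where the limma adjusted p is under 0.05 and a line at each median. No point of the 10 ligase and FoxO genes is red, and the FoxO targets called spread from -1.08 (Sesn1) to 0.86 (Eif4ebp1).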

How the data were processed

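Poly(A) RNA of 9 muscle libraries was sequenced from directional libraries, per the labels' protocols. Trim Galore 0.6.7, HISAT2 2.2.1, featureCounts 2.0.1, DESeq2 1.36.0 and GRCm38 are named, with no settings, in the submitters' processing notes. The authors deposited 2 tables of protein-coding genes, control with ORX and ORX with ORX+DHT, whose values are a normalised signal: counts divided by a factor per library. Whole reads were recovered by dividing each column by its smallest step, and 100% of values were whole within 1e-06.

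Each comparison within a table was tested there with limma 3.58.1 (R 4.3.3) on log2(value + 1), over genes with a mean of at least 10, with Benjamini-Hochberg adjustment over all genes and a threshold of 0.05. ORX+DHT against control and all levels used the recovered reads of 14300 shared genes, rescaled by median-of-ratios factors. edgeR 4.0.16 and DESeq2 1.42.0 were run on the recovered reads as alternatives. Fits were tried on simulated counts with the same dispersion setting for every gene and no outlying library. Such counts cannot show how the fits behave with control replicate 1. Exon lengths and positions came from GENCODE M21.

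The 10 genes and the lists were chosen with earlier results of these data known. Named from each list were all called genes, or at least 2 by smallest p in ORX+DHT against ORX. The 3 genes of highest r were named for Fbxo32, Trim63, Foxo1 and Foxo3, among genes with a mean of at least 50. Other names are marked as chosen after their values were seen.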

Additional observations from a re-analysis of the deposited data

How the results depend on the processing

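With 3 libraries a group and 1340209 to 1682235 reads each, small differences of the genes under 60 reads could not be measured well. Of 450 alternative values of the 10 genes, 438 kept direction and side of the threshold, 10 reversed and 2 crossed the threshold, both for Trim63 in ORX+DHT against ORX. The number of all genes called in ORX against control was 5. It was 16 with no filter, 23 with all 9 libraries in 1 fit, 28 with DESeq2, and 1 to 51 leaving out each library in turn. In ORX+DHT against ORX it was 358, against 123 in the fit of all 9, 224 with DESeq2 and 223 to 350 leaving out each library. There, 209 of 358 calls were higher, against 161 of 327 after quantile normalisation. In ORX+DHT against control it was 3, against 6 after quantile normalisation, 11 in the fit of all 9, 13 with DESeq2 and 0 to 66 leaving out each library, the last without control replicate 1. The number of ligase and FoxO pairs past the threshold was 0, and 0 to 1 leaving out each library.

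Reversed values were those of genes with small differences. In ORX against control Fbxo40 was 0.035 after quantile normalisation, and leaving out libraries gave -0.062 to 0.27 for Nedd4 and -0.012 to 0.32 for Foxo1. In ORX+DHT against ORX the ranges were -0.054 to 0.33 for Fbxo30, -0.12 to 0.056 for Fbxo21, -0.14 to 0.012 for Fbxo40 and -0.062 to 0.27 for Foxo1, and for Trim63 in ORX+DHT against control -0.047 to 0.24. The r of Fbxo32 was -0.53 with Foxo1 and -0.26 with Foxo3 once group means were removed. Leaving out libraries gave -0.057 to 0.34 for Fbxo32 with Foxo1, -0.38 to 0.41 for Fbxo32 with Foxo3, and -0.47 to 0.23 for Trim63 with Foxo1. The causes were not tested.

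After group means were removed, same-numbered libraries correlated at -0.165 to 0.06 between control and ORX, and at -0.0921 to -0.000629 between control and ORX+DHT. Between ORX and ORX+DHT they correlated at 0.0611 to 0.151, above the differently numbered libraries (-0.0872 to 0.0248). Whether replicate numbers pair the libraries was not tested. With the replicate number as a block, 5, 571 and 3 genes were called in the 3 comparisons, and Trim63 in ORX+DHT against ORX had a limma adjusted p of 0.00574.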
